A study of Sus scrofa with 5 samples.

Results

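The contractile apparatus of smooth muscle was followed here through 33 genes chosen by name: actins, myosin chains, the kinase and phosphatase subunits that act on them, thin filament proteins, dense body and Z-disc proteins, and the transcriptional regulators MYOCD and SRF. Matching by symbol found 32 of the 33 among the 35670 features of the count matrices, and LDB3 was not matched and has no value below. Levels were measured in nuclei of the abdominal aorta of 5 castrated male Ossabaw pigs, a small breed that becomes obese on energy-rich feed. The obese group (n = 3) was given the HF/HFru diet and the control group (n = 2) chow, in both cases from 12 months of age. The feeding period is 6 months in one label and 9 months in another. Breed, sex, castration and tissue were shared by both groups. Each library is labelled as a replicate with its own reaction, and it was taken as 1 pig. Frozen vessel was used, and nuclei were sorted on a DNA stain, so the counts are of RNA in nuclei and not of the mature RNA of whole cells.

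Smooth muscle shortens when calcium-bound calmodulin activates myosin light chain kinase (MYLK), which phosphorylates the regulatory light chain MYL9 and lets the myosin heavy chain MYH11 pull on filaments of ACTA2 and ACTG2 actin. Myosin phosphatase, whose targeting subunits are PPP1R12A and PPP1R12B, reverses that step, while caldesmon, calponin and the tropomyosins control access to the filament and alpha-actinins, filamins and vinculin anchor it. Transcription of these genes depends on serum response factor (SRF), which binds the CArG box, and on its cofactor myocardin (MYOCD), and smooth muscle of the aortic media is known for turning this programme down when it leaves the contractile state.

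Since SRF acts through the CArG box, the promoter window of each listed gene was searched for it, from 250 bases before to 50 bases after the RefSeq gene start (assembly Sscrofa11.1, both strands). Only the strict form of the box was counted: CC, then 6 bases that are each A or T, then GG. All 33 genes had a window, and 6 of them (18.2%) held at least 1 CArG box, against 300 of all 19569 windows of the same length (1.53%). The 6 were MYL9, SRF, TAGLN, TPM4, VCL and LDB3. The promoters of 3 genes to which the values below return are printed 5′ to 3′ on the strand of the gene, from 250 bases before to 20 bases after its start, with CArG boxes in capitals. MYL9 lies at chr17:39787915-39788184 on the plus strand, TPM4 at chr2:61476762-61477031 on the minus strand and SRF at chr7:38213050-38213319 on the plus strand.
MYL9: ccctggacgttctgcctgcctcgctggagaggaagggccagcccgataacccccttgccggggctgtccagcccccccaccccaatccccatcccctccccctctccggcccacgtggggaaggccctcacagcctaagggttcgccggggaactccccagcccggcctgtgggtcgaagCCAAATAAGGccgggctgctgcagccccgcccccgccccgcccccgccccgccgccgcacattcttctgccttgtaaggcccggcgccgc
TPM4: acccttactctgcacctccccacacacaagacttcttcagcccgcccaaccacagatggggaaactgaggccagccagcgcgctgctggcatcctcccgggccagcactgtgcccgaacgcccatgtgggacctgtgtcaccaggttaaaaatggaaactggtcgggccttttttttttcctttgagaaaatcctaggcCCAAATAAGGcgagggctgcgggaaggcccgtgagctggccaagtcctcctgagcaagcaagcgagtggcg
SRF: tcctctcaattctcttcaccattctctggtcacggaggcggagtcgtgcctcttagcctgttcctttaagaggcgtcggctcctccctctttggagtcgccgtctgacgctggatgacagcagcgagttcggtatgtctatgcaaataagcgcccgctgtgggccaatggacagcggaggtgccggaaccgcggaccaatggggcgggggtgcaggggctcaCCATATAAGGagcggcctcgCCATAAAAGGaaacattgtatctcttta
The boxes begin 70 bases before the start of MYL9, 51 before that of TPM4, and 28 and 8 before that of SRF. A match describes the letters of the window and not a site in use. A window with no match, such as that of ACTA2, lacks the strict form only. It may hold boxes that depart from this form, which were not searched for.

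The 5 libraries held 21516249 to 47724416 UMIs (unique molecular identifiers, which count RNA molecules) over 45580 barcodes. After filtering, 41981 nuclei remained, 5437 to 11072 per pig, with a median of 1819 to 2676.5 UMIs per nucleus. Any pair of the 10 pairs of libraries shared 10 to 29 barcodes. The nuclei formed 22 clusters, which were named from marker genes that include none of the 33, and the 33 were also kept out of the clustering. Smooth muscle-like nuclei (clusters 0, 1, 2, 3, 4, 8 and 11) numbered 3794, 3970 and 5125 in obese pigs 1 to 3 and 9329 and 4084 in control pigs 1 and 2, or 50.8% ± 7.25 (SD, n = 3) and 79.7% ± 6.46 (SD, n = 2) of all nuclei. Within the class the summed level of its 18 markers was 39739 to 43447 UMIs per 1000000 UMIs of the class (CPM) in obese pigs and 39792 to 40915 CPM in control pigs. Most obese nuclei of the class were in clusters 2, 0 and 1 (4365, 2747 and 2283 of 12889), and most control nuclei in clusters 0, 3 and 1 (3329, 3179 and 2624 of 13413). Clusters 5, 9, 10 and 12 carried smooth muscle markers but were left without a name by rules set after the values were seen. Clusters 5, 10 and 12 fell short of the marker threshold, and cluster 9 was led by red cell genes. All 4 are described separately.

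In smooth muscle-like nuclei the contractile genes stayed, as a group, near their control level: 1 of 31 tested genes, the enteric-type smooth muscle actin ACTG2, changed: it rose, from 72.7 ± 13.9 CPM (SD, n = 2) in control pigs to 202 ± 21.4 CPM (SD, n = 3) in obese pigs. The median log2 fold change (obese minus control) of the 31 was -0.04, against 0.01 over all 16785 genes tested. Calls are those of edgeR's quasi-likelihood test over pigs with an adjusted p under 0.05, which 0.334% of all genes tested reached. Of the 31, 21 lay within 0.5 and 26 within 1 of no change on the log2 scale, and 14 had a positive and 17 a negative fold change. An unadjusted p under 0.05 in edgeR was found for 6 of the 31 and for 2269 of all 16785 genes tested. DESeq2 called 3 of the 31 (ACTG2, FHL5 and MYOZ3) and limma-voom none. Here and below, no share of all genes called is given for DESeq2 or limma-voom. Their counts of calls have no background to be read against. In simulated counts of this comparison the edgeR test recovered 96% of 4-fold and 10% of 2-fold changes, so a gene that was not called may still have differed. For 11 of the 31 the values of the obese pigs did not overlap those of the control pigs, and the same held for 29.7% of all genes tested. The 5 higher genes were ACTA2, ACTG2, TPM1, PPP1R12A and FHL5, and the 6 lower ones TPM2, MYL6, MYL9, PDLIM7, ACTN2 and MYOZ3.

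**Figure D1:**
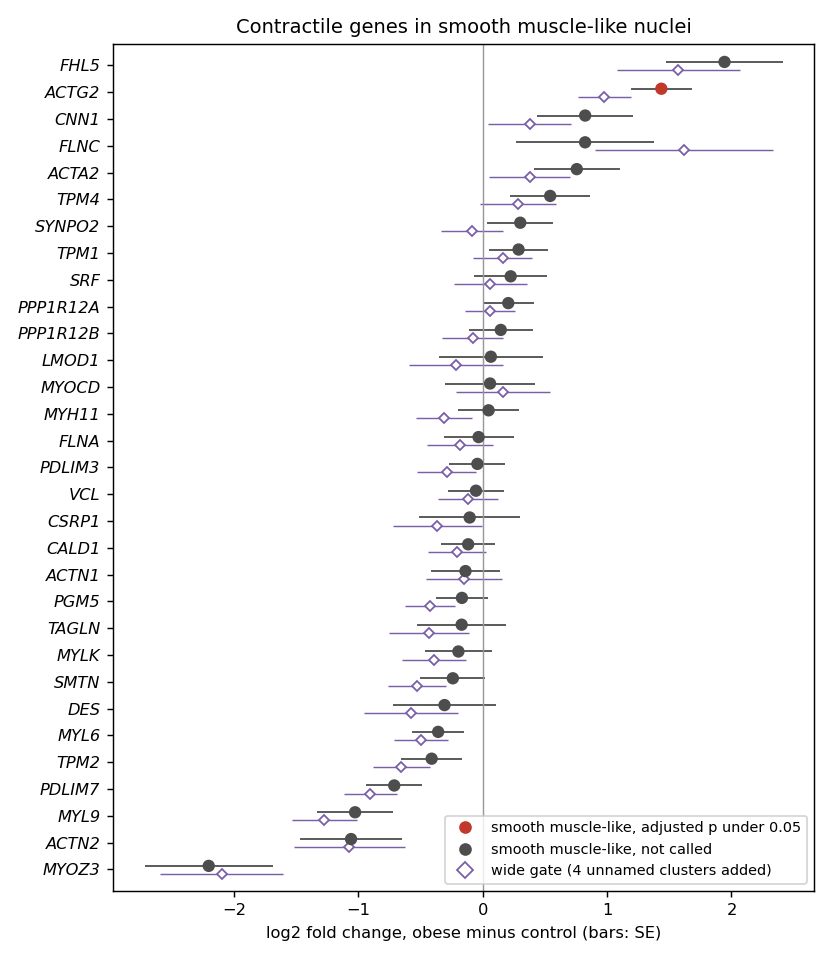
Log2 fold change (obese minus control, bars are standard errors, 3 obese and 2 control pigs) of the 31 contractile genes tested in smooth muscle-like nuclei (circles), and with the 4 unnamed clusters added (open diamonds). The circle of ACTG2, at 1.44, is coloured since its edgeR adjusted p was under 0.05, and the genes run from FHL5 at 1.94 to MYOZ3 at -2.20.

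Among the actins, ACTG2 reached 197, 183 and 225 CPM in obese pigs 1 to 3 and 62.9 and 82.5 CPM in control pigs 1 and 2. Every obese pig was above both control pigs, and the log2 fold change was 1.44 with a standard error of 0.25 (edgeR adjusted p = 0.0442). ACTA2, the main actin of vascular smooth muscle, had 1816, 1611 and 3488 CPM in obese pigs and 1342 and 1356 CPM in control pigs. All obese pigs again lay above both controls, but obese pig 3 was far above the other obese pigs, and the difference of 0.76 with a standard error of 0.35 did not pass the test (edgeR adjusted p = 0.373).

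The ACTG2 call was not stable to the pigs and nuclei chosen. Without obese pig 1 the log2 fold change was 1.44 (edgeR adjusted p = 0.162), without obese pig 3 1.30 (0.0691), without control pig 1 1.21 (0.198) and without control pig 2 1.68 (0.0713). It stayed called without obese pig 2. With the unnamed clusters 5, 9, 10 and 12 added to the class, ACTG2 had 140, 155 and 136 CPM in obese pigs and 62.7 and 78.3 CPM in control pigs, a difference of 0.98 with a standard error of 0.21 (edgeR adjusted p = 0.0872). The pigs of the groups still did not overlap. Over all kept nuclei, where the shares of the classes enter the value, ACTG2 had 154, 121 and 127 CPM in obese pigs and 55.8 and 70.1 CPM in control pigs, a log2 fold change of 1.03 (edgeR adjusted p = 0.174). There 0 of 32 contractile genes were called by edgeR (0.0% of all 20037 genes tested were), and DESeq2 called 4 and limma-voom 0. An unadjusted p under 0.05 in edgeR was found for 9 of the 32 and for 2820 of all genes tested.

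The myosin motor itself showed no difference between the diets beyond the spread of the pigs. MYH11 had 3190, 3262 and 4383 CPM in obese pigs and 3129 and 3697 CPM in control pigs, so the groups overlapped. Its log2 fold change was 0.05 with a standard error of 0.24 (edgeR adjusted p = 0.958), and it was -0.31 (edgeR adjusted p = 0.558) with the unnamed clusters added. The regulatory light chain MYL9 was lower in every obese pig, at 14.6, 11.02 and 17.6 CPM against 25.1 and 32.3 CPM in control pigs. That difference of -1.03, with a standard error of 0.30, did not pass the test over all genes (edgeR adjusted p = 0.173). The essential light chain MYL6 had 54.5, 75.3 and 63.1 CPM in obese and 82.9 and 77.0 CPM in control pigs, a difference of -0.36 with a standard error of 0.21 (edgeR adjusted p = 0.505). Obese pig 2 lay just below the lower control pig. MYLK, the kinase, had 694, 825 and 1194 CPM against 1047 and 986 CPM, with the control values inside the obese range (-0.19, standard error 0.27, edgeR adjusted p = 0.801). The phosphatase subunit PPP1R12A had a log2 fold change of 0.21 and PPP1R12B one of 0.15, and neither passed the test.

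None of the thin filament regulators tested passed. CNN1, calponin, which inhibits the myosin ATPase, had 89.3, 56.3 and 143 CPM in obese pigs and 43.1 and 64.1 CPM in control pigs. Obese pig 2 fell between the controls, and the difference of 0.82 with a standard error of 0.39 did not pass (edgeR adjusted p = 0.394). TAGLN, the actin-bundling protein transgelin, had 217, 176 and 413 CPM against 269 and 328 CPM. Obese pig 3 was above and the other obese pigs below both controls (-0.17, standard error 0.36, edgeR adjusted p = 0.884). TPM2, a tropomyosin of the muscle type, had 145, 120 and 184 CPM in obese and 207 and 184 CPM in control pigs (-0.41, standard error 0.25, edgeR adjusted p = 0.516), while TPM4, a form also made in many cells that are not muscle, had 421, 236 and 488 CPM against 233 and 283 CPM (0.54, standard error 0.32, edgeR adjusted p = 0.509). TPM1, whose obese pigs were all above the control pigs, had a fold change of 0.29 (edgeR adjusted p = 0.637). Caldesmon (CALD1), smoothelin (SMTN) and the actin nucleator LMOD1 had fold changes of -0.12, -0.24 and 0.07, with overlapping groups. SMTNL2, a smoothelin-like protein, had 2, 3 and 1 counts in obese and 25 and 3 counts in control pigs in this class and was too low to be tested.

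**Figure D2:**
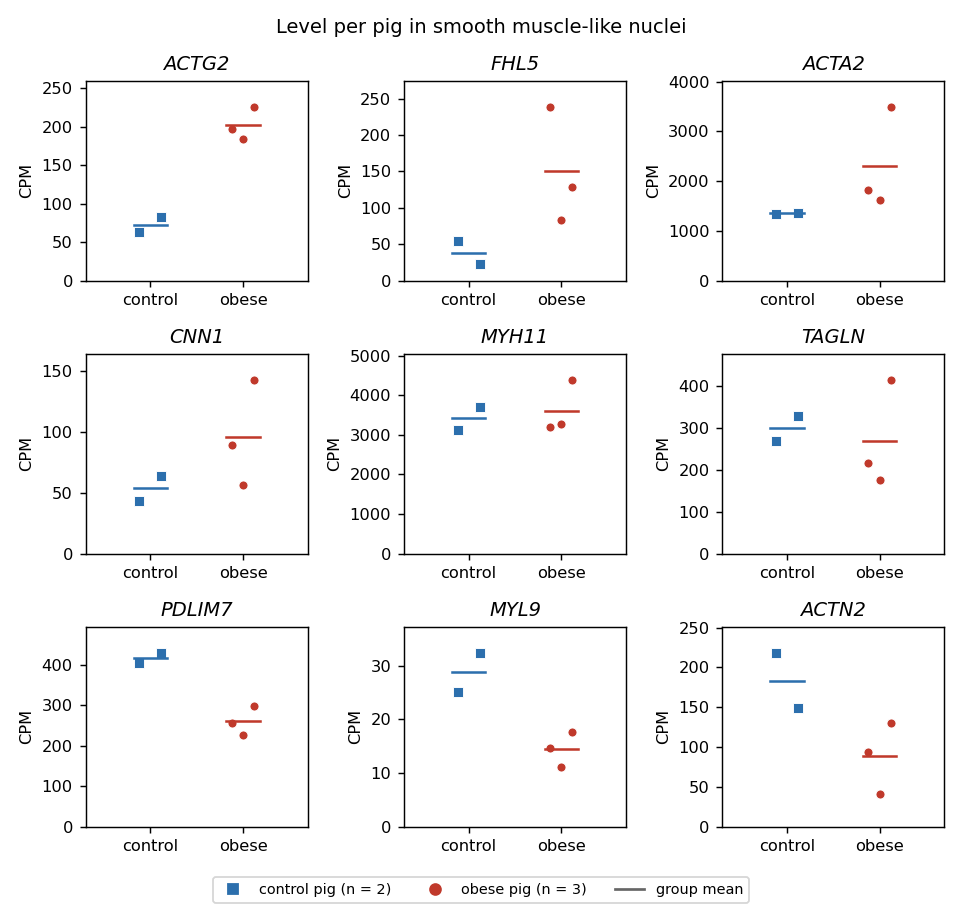
Level in CPM (linear axes from 0) of 9 contractile genes in smooth muscle-like nuclei, with 1 point per pig, 2 control and 3 obese, and a line at each group's mean. All obese pigs lie above the controls for ACTG2, FHL5 and ACTA2 and below them for PDLIM7, MYL9 and ACTN2, and the groups overlap for CNN1, MYH11 and TAGLN.

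Genes of the dense bodies and Z-discs anchor the filaments, and none of them passed the test. ACTN2, an alpha-actinin better known from striated muscle, had 94.1, 40.7 and 130 CPM in obese and 218 and 149 CPM in control pigs. Its groups did not overlap, and the difference of -1.06 with a standard error of 0.41 did not pass (edgeR adjusted p = 0.292). PDLIM7, a PDZ and LIM domain protein that binds actin filaments, had 257, 225 and 298 CPM against 403 and 428 CPM (-0.71, standard error 0.22, edgeR adjusted p = 0.202). MYOZ3, a calsarcin of the Z-disc, had 9, 10 and 18 counts in obese and 116 and 84 counts in control pigs, or 0.855, 0.633 and 1.51 CPM against 3.24 and 5.77 CPM. All obese pigs were below both controls (-2.20, standard error 0.51, edgeR adjusted p = 0.0994). FLNC, filamin C, went the other way in mean but with wide spread: 46.5, 23.9 and 105 CPM in obese and 21.4 and 44.3 CPM in control pigs (0.82, standard error 0.56, edgeR adjusted p = 0.567). Obese pig 2 lay between the control pigs. VCL (vinculin), FLNA, ACTN1, PDLIM3 and CSRP1 had fold changes from -0.14 to -0.03, each with overlapping groups. DES, the intermediate filament desmin, had 52.8, 33.7 and 64.4 CPM in obese pigs and 32.9 and 88.3 CPM in control pigs, which spanned all 3 obese values. SYNPO2, an actin-binding protein of the Z-disc, had a fold change of 0.30 and PGM5, a protein of adherens-type junctions, one of -0.17, and neither passed.

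Of the regulators, MYOCD had 1072, 539 and 1252 CPM in obese pigs and 732 and 1070 CPM in control pigs. The control values lay inside the obese range, with a log2 fold change of 0.06 and a standard error of 0.36 (edgeR adjusted p = 0.965). SRF had 12.5, 11.2 and 13.2 CPM against 12.0 and 8.51 CPM (0.23, edgeR adjusted p = 0.79). FHL5, a LIM-only protein that acts as a transcriptional coactivator in smooth muscle, had 239, 82.7 and 129 CPM in obese and 53.9 and 23.1 CPM in control pigs. It had the highest fold change of the 31, 1.94 with a standard error of 0.47, and groups that did not overlap, but it missed the threshold (edgeR adjusted p = 0.106). It also missed it with the unnamed clusters added (1.57, edgeR adjusted p = 0.181). Of the 3 genes whose promoters are printed above, MYL9 lay below both controls in every obese pig, and the other 2 overlapped between the groups in this class.

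RNA of heat shock and immediate early genes, a group induced by stress and by handling of tissue, differed between the same pigs. The summed level of 11 such genes in smooth muscle-like nuclei was 1204 to 3548 CPM in obese and 769 to 1044 CPM in control pigs, and mitochondrial RNA was 32.7 to 51.7 CPM against 24.7 to 26.7 CPM. DUSP1, a phosphatase of that list, had 125, 85.0 and 245 CPM in obese and 25.6 and 15.5 CPM in control pigs and rose by 2.88 on the log2 scale (edgeR adjusted p = 0.0413). Summed over 16 genes, the macrophage list had 121 to 193 CPM in obese and 285 to 356 CPM in control pigs, although 10 of its genes were higher and 1 lower in every obese pig. The pericyte markers summed to 971.6 to 1158 CPM against 1297 to 1368 CPM, and the fibroblast markers to 1079 to 1515 CPM against 1694 to 1790 CPM. Yet 4 of 17 pericyte genes were higher and 3 lower in every obese pig, and 1 of 15 fibroblast genes was higher and 5 lower. The part of these differences in the contractile gene results was not tested.

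Within the 7 smooth muscle-like clusters the higher ACTG2 of the obese pigs recurred. Its groups did not overlap in 6 of 7 clusters, all 6 clusters tested had a positive fold change (1.33 to 2.45), and it was called in clusters 0 and 1 (edgeR adjusted p = 0.0281 and 0.0279). In those clusters 0.107% and 0.438% of all genes tested were called. Cluster 3 held the widest range, with 191, 1030 and 304 CPM in obese and 88.5 and 86.0 CPM in control pigs. Obese pig 2, the highest there, had only 81 nuclei in that cluster. In cluster 8, which came mostly from control pig 1 (1527 of 1723 nuclei), ACTG2 had 0, 20.8 and 18.6 CPM in obese and 36.6 and 18.6 CPM in control pigs and was not tested. PDLIM7 was lower in every obese pig in 7 of 7 clusters (-1.03 to -0.18), and it was called in none of them. MYL9 had a negative fold change in 6 of 6 clusters tested and ACTN2 in 7 of 7, while TPM1 was positive in 7 of 7, and FHL5 and FLNC in 6 of 6. None of these was called in any cluster. The clusters hold nuclei of the same pigs, so they are not independent repeats. In the class as a whole the groups did not overlap for 29.7% of all genes tested. No such share is given for single clusters, so the counts of clusters without overlap are descriptions only.

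**Figure D3:**
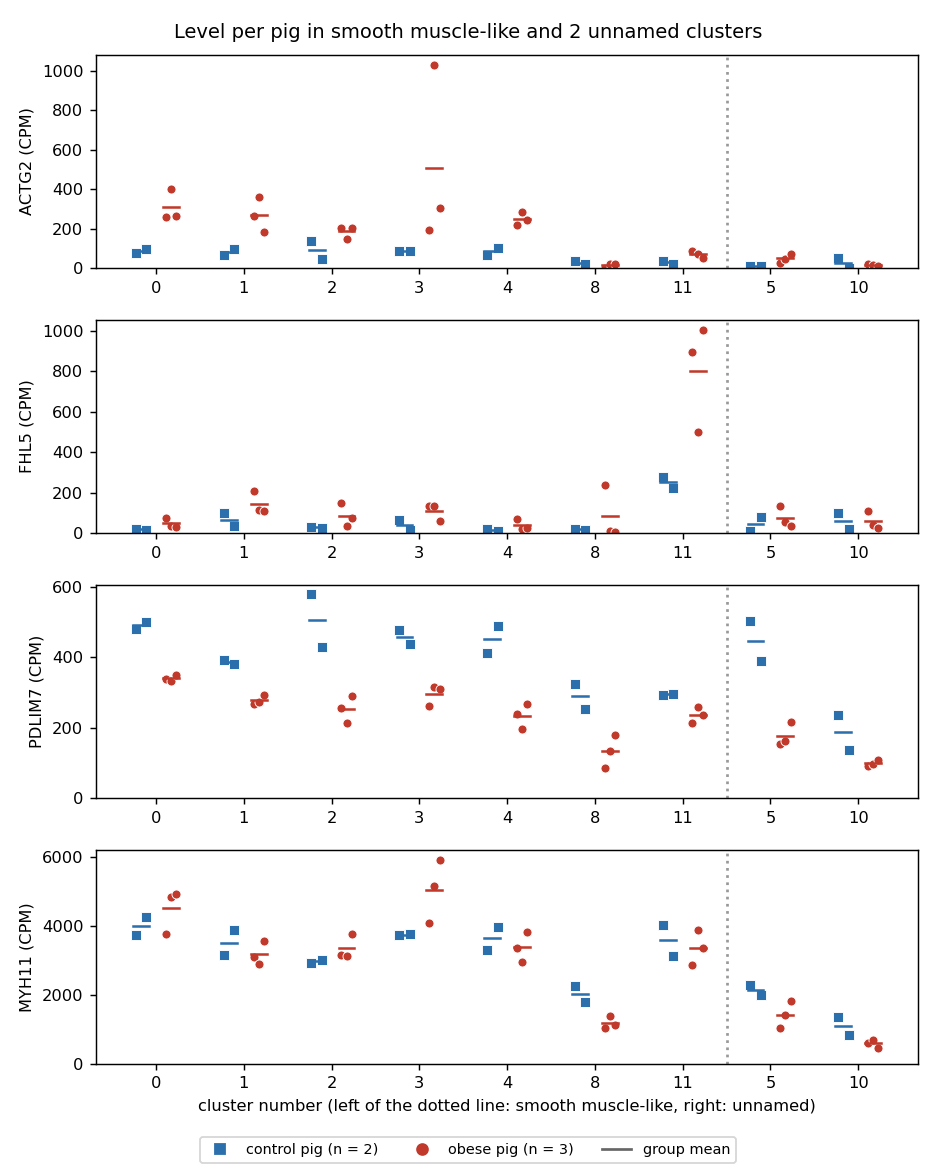
Level in CPM of ACTG2, FHL5, PDLIM7 and MYH11 by pig in the 7 smooth muscle-like clusters and, right of the dotted line, the unnamed clusters 5 and 10, with 1 point per pig, 2 control and 3 obese, and a line at each group's mean. PDLIM7 is lower in every obese pig in all 7 smooth muscle-like clusters, and FHL5 is highest in cluster 11, where 1 obese pig reached 1004 CPM.

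The contractile genes also differed among the clusters in ways that need no diet comparison, and these are descriptions, since the clusters were found from the same nuclei. FHL5 in cluster 11 was 895, 498 and 1004 CPM in obese and 279 and 224 CPM in control pigs. That is 6.10 to 16.3 times the level in the other smooth muscle-like nuclei of the same pig, with cluster 11 left out. TPM4 was also above the rest there, by 2.42 to 5.28 times, while ACTG2 was below it in all 5 pigs. Cluster 8 had 21 of 32 genes below the rest of the class in every pig and none above it in every pig. MYH11 in cluster 8 had 1033, 1388 and 1128 CPM in obese and 2247 and 1792 CPM in control pigs, the former from 21, 35 and 37 nuclei. The cluster made up 0.360% of obese and 7.84% of control nuclei, with 13.8% in control pig 1 and 1.89% in control pig 2. Cluster 0 had 14 of 32 genes above and 6 below the rest of the class in every pig. Over the 31 cluster-by-pig values of this class with 50 or more nuclei, the genes whose log2 level was most like that of ACTA2 were H2BC21, CHST11, GALM and ACTG2 (Pearson r = 0.825, 0.797, 0.771 and 0.766 among 5585 genes). For ACTG2 the named genes were PRSS22, LUC7L3 and BANP (r = 0.871, 0.840 and 0.831). These correlations describe points that share pigs, libraries and depth.

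The unnamed clusters 5 and 10 held smooth muscle markers with lower contractile RNA, and both were rare in the control pigs. Cluster 5, led by INHBA, GPRC5A, ANKRD1 and THBS1, made up 10.7% ± 10.3 of obese (SD, n = 3) and 0.394% ± 0.276 of control nuclei (SD, n = 2). ACTA2 in it had 447, 431 and 1638 CPM in obese and 679 and 905 CPM in control pigs, a median of 0.47 times the smooth muscle-like level of the same pig, and MYH11 a median of 0.43 times. FLNC was the opposite, at 216, 121 and 404 CPM in obese and 62.9 and 315 CPM in control pigs, or 2.94 to 7.11 times. MYOCD, the regulator, was also above the class in every pig (1.07 to 1.43 times). Of 32 genes 14 were below the class level in every pig, and FLNC and MYOCD were the only ones above it in every pig. The control values rest on 22 and 32 nuclei.

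Cluster 10, led by SERPINE2, ADAM12 and RUNX2, made up 6.24% ± 1.51 of obese and 0.366% ± 0.262 of control nuclei. It had 24 of 32 contractile genes below the class level in every pig, with ACTA2 at 0.19 and MYH11 at 0.215 times as medians, and only MYOZ3 above it in every pig. MYH11 had 610, 700 and 463 CPM in obese and 1361 and 821 CPM in control pigs, the latter from 20 and 30 nuclei. MYOCD stood at 0.899 times as a median, closer to the class than the structural genes. The other unnamed clusters were cluster 9, led by red cell genes and APOE (2.51%, 15.1% and 0.443% of the nuclei of obese pigs 1 to 3 and 0.187% of control nuclei, so mostly from obese pig 2), and cluster 12, led by heat shock genes (1.72% and 4.13%, with all 449 control nuclei from control pig 2). No 2-sided exact rank test of such shares over 3 and 2 pigs can go below p = 0.2. With all 4 clusters added, smooth muscle nuclei made up 75.5% ± 11.2 of obese and 84.8% ± 0.0140 of control nuclei, and the pigs of the groups overlapped.

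That wider class gave lower values for several structural genes, and no contractile gene was called in it. The median fold change of the contractile genes tested was -0.21, against 0.01 over all genes. An unadjusted p under 0.05 in edgeR was found for 10 of them and for 2675 of all 18154 genes tested. Only 0.187% of all genes tested were called. Groups did not overlap for 10 of the contractile genes, 2 higher and 8 lower, and for 30.5% of all genes tested. MYL9 had a fold change of -1.27 (edgeR adjusted p = 0.0809), PDLIM7 one of -0.90 (0.109), SMTN -0.53 and PGM5 -0.42. FLNC had 76.4, 30.1 and 211 CPM in obese and 21.5 and 48.1 CPM in control pigs (1.62, edgeR adjusted p = 0.331), so obese pig 2 lay within the control values.

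Pericyte-like nuclei, the other mural cells, were cluster 13, with 228, 394 and 82 nuclei in obese and 133 and 67 in control pigs. The name rests on markers such as GUCY1A2 (665 CPM as a mean over pigs, against 8.34 CPM in smooth muscle-like nuclei), ABCC9 (551 against 124), GJC1 (438 against 135), TRPC6 (463 against 117) and PDGFRB (191 against 96.2). RGS5 (104 against 245 CPM), CSPG4 (53.5 against 244 CPM) and, at low level, COX4I2 (2.76 against 4.72 CPM) went against it. NOTCH3 (134 against 141 CPM) and AGTR1 (4.65 against 4.73 CPM) were near level. In the cluster 16 smooth muscle markers counted beside 8 pericyte ones, and the position score was 0.537 for smooth muscle and 0.49 for pericyte. The name is thus a loose one. In all 5 pigs 7 contractile genes were above the smooth muscle-like level: CNN1, MYOCD, SYNPO2, TPM4, PDLIM3, PPP1R12A and FHL5. The median over pigs was 425% of that level for PDLIM3, 333% for FHL5, 299% for CNN1 and 255% for SYNPO2. SMTN, MYLK, PDLIM7 and ACTN1 were below it in all 5 pigs.

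With diet, 0 of 29 contractile genes tested were called in pericyte-like nuclei by edgeR, DESeq2 or limma-voom. There edgeR called 0.0% of all 5709 genes tested. An unadjusted p under 0.05 in edgeR was found for 3 of the 29 and for 426 of all genes tested. The median fold change was 0.17, against 0.02 over all genes, and groups did not overlap for 10 of the genes, 5 in each direction, and for 24.3% of all genes tested. ACTG2 had 584, 327 and 61.9 CPM in obese and 112 and 114 CPM in control pigs, with obese pig 3 below both controls (1.61, standard error 0.70, edgeR adjusted p = 0.648). FHL5 had 641, 403 and 426 CPM against 179 and 356 CPM (0.97), and TPM4 had 827, 741 and 720 CPM against 248 and 588 CPM (0.96), and for both genes all obese pigs were above the controls. MYL9 had 19.0, 15.9 and 15.5 CPM against 35.8 and 47.4 CPM (-1.20), SMTN a fold change of -0.62 and FLNC one of -0.58. The pericyte markers summed to 2094 to 2787 CPM in obese and 3117 to 3526 CPM in control pigs, the fibroblast markers to 1203 to 1277 CPM against 1874 to 1892 CPM, and the immediate early and heat shock genes to 4308 to 5682 CPM against 1849 to 3838 CPM, and their part in these values was not tested. The difference between the diet effects in smooth muscle-like and pericyte-like nuclei was called for 0 contractile genes by edgeR and for 0.569% of all genes. There 7 contractile genes and 955 of all 15457 genes tested had an unadjusted p under 0.05. That test was run with edgeR alone.

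**Figure D4:**
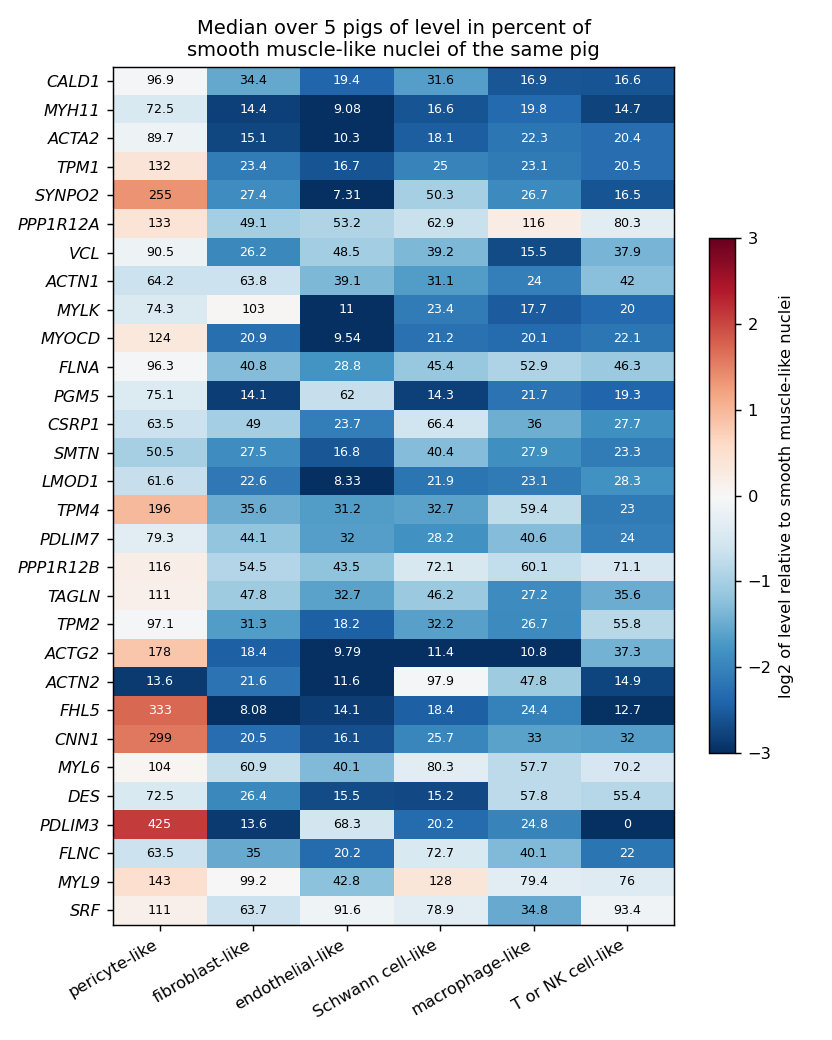
Level of each contractile gene in 6 cell classes as a percentage of smooth muscle-like nuclei of the same pig (number in each cell, median over 5 pigs), with colour on a log2 scale. Pericyte-like nuclei reach 425% for PDLIM3, while MYH11 is at 9.08% in endothelial-like and 14.7% in T or NK cell-like nuclei.

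Contractile RNA was also counted in nuclei of cells that do not build the apparatus, and it was read against T or NK cell-like nuclei, which should lack it. MYH11 in T or NK cell-like nuclei reached 40.2%, 12.9% and 31.5% of the smooth muscle-like CPM of the same pig in obese pigs and 14.7% and 13.9% in control pigs. For ACTA2 it was 43.2%, 14.0% and 23.8% in obese and 18.7% and 20.4% in control pigs. ACTG2 in T or NK cell-like nuclei had 281, 42.0 and 26.8 CPM in obese and 30.3 and 30.8 CPM in control pigs, which in obese pig 1 was 143% of the smooth muscle-like level, so ACTG2 exceeded this background in 4 of 5 pigs. With each nucleus thinned to 1000 UMIs and shallower ones left out, 61.4%, 35.1% and 30.4% of T or NK cell-like nuclei of the obese pigs and 36.8% and 32.1% of the control pigs had a MYH11 UMI. In smooth muscle-like nuclei the share was 72.9% to 81.0%, and in endothelial-like nuclei 20.3% to 34.01%. Before thinning the T or NK cell-like shares were 48.1% to 61.8% and the endothelial-like ones 38.4% to 62.9%. Median depths were 1602 to 2491 UMIs in T or NK cell-like and 1582 to 5489.5 UMIs in endothelial-like nuclei. In every pig the thinned endothelial-like share was below that of T or NK cell-like nuclei, which is read as background. Fibroblast-like shares were 26.9% to 39.9% and exceeded it in control pig 2 only.

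The number of contractile genes above the T or NK cell-like CPM in all 5 pigs was 21 of 32 in pericyte-like nuclei, 7 in fibroblast-like, 4 in Schwann cell-like, 3 in endothelial-like and 2 in macrophage-like nuclei. No share of all genes above that level is given, so these counts have no background to be read against. In endothelial-like nuclei the contractile genes above it in all 5 pigs were PDLIM3, VCL and PGM5. VCL, a linker of cell junctions, had 655, 581 and 624 CPM there in obese and 653 and 832 CPM in control pigs, against 586, 462 and 254 CPM and 433 and 472 CPM in T or NK cell-like nuclei. In fibroblast-like nuclei they were TPM4, MYLK, PDLIM3, PDLIM7, CSRP1, ACTN1 and MYOZ3. MYLK in fibroblast-like nuclei, at 954, 628 and 1226 CPM in obese and 922 and 1289 CPM in control pigs, was 76.0% to 137% of the smooth muscle-like level. In macrophage-like nuclei they were TPM4 and PDLIM7. PPP1R12A there had 1900, 3562 and 1643 CPM in obese and 839 and 1058 CPM in control pigs, which was above the T or NK cell-like level in 4 of 5 pigs.

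Endothelial-like nuclei had the only other called contractile genes, 3 of 29 tested, beside 7.34% of all 7981 genes tested. DESeq2 called 4 and limma-voom 2. An unadjusted p under 0.05 in edgeR was found for 11 of the 29 and for 1985 of all 7981 genes tested. The median fold change was 0.28, against -0.02 over all genes, and groups did not overlap for 14 of the 29, 7 in each direction, and for 43.8% of all genes tested. The control nuclei were deeper, with a median of 5066 and 5489.5 UMIs against 1582, 1727 and 1785 UMIs in obese pigs. The class also differed in makeup: cluster 15 held 162, 266 and 102 obese and 170 and 59 control nuclei, and cluster 18 held 41, 23 and 21 obese and 249 and 143 control nuclei. The lymphatic endothelial markers summed to 231 to 907 CPM in obese and 89.2 to 96.8 CPM in control pigs (TFF3 at 0), and the endothelial markers to 7299 to 8208 CPM against 9419 to 9974 CPM. Of the 7 lymphatic markers only 1 was higher in every obese pig, and 1 was lower. For the 16 endothelial markers it was 3 higher and 4 lower. Sums were also higher in every obese pig for the pericyte list (246 to 523 against 195 to 217 CPM) and the macrophage list (218 to 280.0 against 113 to 154 CPM), and lower for the fibroblast list (855 to 1003 against 1509 to 1654 CPM). Gene by gene, 2 of 17 pericyte and 3 of 16 macrophage genes were higher in every obese pig and 0 lower. In the fibroblast list 0 of 15 were higher and 5 lower. The B or plasma list was higher too (1066 to 1632 against 255 to 552 CPM), with MS4A1, BLK, MZB1 and POU2AF1 at 0. Of its 12 genes 3 were higher and 1 lower in every obese pig. That list summed to 3536 to 5341 CPM in obese and 3867 to 4492 CPM in control pericyte-like nuclei, so its sum is not particular to B or plasma cells. The summed immediate early and heat shock genes had 2890 to 4385 CPM against 1007 to 1879 CPM. The part of these differences in the 3 calls was not tested beyond the fits of single clusters given below.

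SMTNL2 fell in this class. It had 0, 3 and 0 counts in obese and 240 and 76 counts in control pigs, or 0, 3.67 and 0 CPM against 92.3 and 61.8 CPM. Pooled over pigs, the control level was 49.6 times the obese one (exact 95% interval 16.8 to 242 for counting error only, edgeR adjusted p = 0.00531). After thinning to 1000 UMIs, 29 of 355 nuclei of control pig 1 (8.17%, exact binomial interval 5.54% to 11.5%) and 10 of 173 of control pig 2 (5.78%, 2.81% to 10.4%) had a SMTNL2 UMI. In the obese pigs it was 0 of 138, 1 of 197 and 0 of 88 nuclei, where a count of 0, taken as fewer than 3 counts of the total, allows up to 2.17% in obese pig 1 and 3.41% in obese pig 3. No T or NK cell-like nucleus had one after thinning, in 44, 57 and 23 obese and 117 and 28 control nuclei, and a count of 0 there allows up to 2.56% in control pig 1, the one with most such nuclei. Before thinning 1 nucleus of control pig 1 had one. The endothelial-like shares before thinning were 26.0% and 23.3% in control pigs and at most 0.692% in obese pigs. Over all kept nuclei SMTNL2 had 5, 20 and 7 counts in obese and 292 and 84 in control pigs, so most control counts, but few of the obese ones, came from this class.

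**Figure D5:**
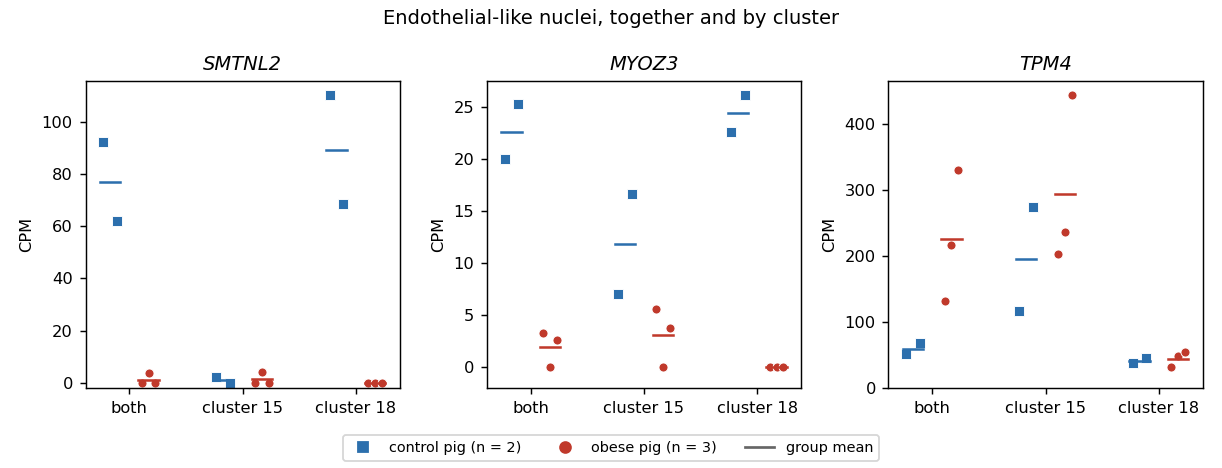
Level in CPM of SMTNL2, MYOZ3 and TPM4 in endothelial-like nuclei together and in clusters 15 and 18, with 1 point per pig, 2 control and 3 obese, and a line at each group's mean. SMTNL2 is at 110 and 68.5 CPM in cluster 18 of the control pigs and at 0 in the obese pigs, while the TPM4 values of the groups overlap within each cluster.

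Within the clusters of the class, SMTNL2 lay almost wholly in cluster 18. There it had 0, 0 and 0 counts in obese and 239 and 76 counts in control pigs, at least 14.3-fold lower in obese pigs against a floor of 3 counts over the group (edgeR adjusted p = 0.0404). In that cluster 1.37% of all genes tested were called. Cluster 15 had 0, 3 and 0 counts in obese and 1 and 0 in control pigs. MYOZ3 fell in the class too, with 2, 0 and 1 counts in obese and 52 and 31 in control pigs, a pooled ratio of 13.03 (4.31 to 64.5) of control over obese (edgeR adjusted p = 0.0277). The call was lost without obese pig 1 (edgeR adjusted p = 0.0565), control pig 1 (0.176) or control pig 2 (0.255), and with limma-voom (adjusted p = 0.0795). In cluster 18 it had no counts in obese and 49 and 29 in control pigs, at least 3.55-fold lower, and was not tested. In cluster 15 it had 2, 0 and 1 counts against 3 and 2.

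TPM4, which exceeded the T or NK cell-like level in 4 of 5 pigs, rose in the class, from 51.2 and 67.5 CPM in control pigs to 131, 216 and 329 CPM in obese pigs. All obese pigs were above the controls, with a log2 fold change of 2.02 and a standard error of 0.43 (edgeR adjusted p = 0.0244). The call was lost without control pig 1 (edgeR adjusted p = 0.174) and without control pig 2 (0.0917). It was also absent within clusters. In cluster 18 TPM4 had 31.4, 48.2 and 54.2 CPM in obese and 38.2 and 45.1 CPM in control pigs (0.15, edgeR adjusted p = 0.936), and in cluster 15 it had 203, 235 and 444 CPM against 117 and 274 CPM (0.76, edgeR adjusted p = 0.636). No contractile gene was called in cluster 15 by edgeR, the only test run there, and 0.0% of all 5433 genes were. In that cluster 1 contractile gene and 611 of all genes tested had an unadjusted p under 0.05. Among the genes not called in the class, SRF had a fold change of 1.75 (11.5, 17.1 and 42.5 CPM in obese and 7.31 and 6.51 CPM in control pigs), LMOD1 one of 1.48 (27.9, 73.4 and 37.2 against 15.4 and 20.3 CPM) and ACTN2 one of -1.29 (9.85, 7.34 and 10.6 against 25.4 and 21.2 CPM). ACTA2 (1.06) and MYH11 (0.80) were also higher in all obese pigs without passing. Both exceeded the T or NK cell-like level in only 1 of 5 pigs, obese pig 2.

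The diet effect on TPM4 was smaller in smooth muscle-like than in endothelial-like nuclei, by 1.42 on the log2 scale (-1.42, edgeR adjusted p = 0.0133). That on SMTNL2 differed by 4.16 (edgeR adjusted p = 0.0276), a fitted value that depends on the prior count, since the obese pigs held 3 counts in endothelial-like nuclei. These were 2 of 603 genes called in that comparison (3.68% of all tested), and leaving out any 1 pig left at most 1 of the pair called, and neither without control pig 2. The diet effect on ACTG2 was not shown to differ between these classes (0.13, standard error 0.48, edgeR adjusted p = 0.95): its levels in endothelial-like nuclei, 14.8, 22.0 and 21.2 CPM in obese and 6.15 and 10.6 CPM in control pigs, were 7.49% to 12.8% of the smooth muscle-like level and below the T or NK cell-like one in every pig.

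In fibroblast-like nuclei 0 of 29 contractile genes were called by edgeR, DESeq2 or limma-voom, with 0.146% of all genes called by edgeR. An unadjusted p under 0.05 in edgeR was found for 6 of the 29 and for 1002 of all 8925 genes tested. The median fold change was -0.11, against 0.01 over all genes, and groups did not overlap for 13, 6 higher and 7 lower, and for 27.6% of all genes tested. FHL5 had 19.3, 14.3 and 6.99 CPM in obese and 5.65 and 1.09 CPM in control pigs (1.77, edgeR adjusted p = 0.367). ACTG2 had 54.8, 33.7 and 15.1 CPM against 11.7 and 8.68 CPM (1.73, edgeR adjusted p = 0.272), and TPM4 had a fold change of 0.94. MYL9 was lower, at 10.2, 9.09 and 17.5 CPM against 29.1 and 33.6 CPM (-1.35, edgeR adjusted p = 0.285), as was MYL6, at 28.4, 32.4 and 38.5 CPM against 56.5 and 55.3 CPM (-0.74), and ACTN2 had a fold change of -0.70. ACTG2 and MYL9 thus had the same direction in this class as in smooth muscle-like nuclei. The same pigs are compared in both classes, and the part of free RNA of the same libraries was not tested. The summed immediate early and heat shock genes had 2666 to 4153 CPM in obese and 810.4 to 1086 CPM in control pigs of this class, and their part in these values was not tested. In every pig the ACTG2 level was below that of T or NK cell-like nuclei. MYL9 had 11.7, 5.25 and 13.4 CPM in obese and 20.9 and 10.3 CPM in control T or NK cell-like nuclei, from 1 to 9 counts per pig. Its fibroblast-like level was above these values in every pig except obese pig 1. The difference between the diet effects in smooth muscle-like and fibroblast-like nuclei was called for 0 contractile genes by edgeR, the only test run, and for 0.0188% of all genes. There 0 contractile genes and 1079 of all 15952 genes tested had an unadjusted p under 0.05.

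Lists of genes related to the contractile apparatus were read in smooth muscle-like nuclei, where 0.334% of all genes were called. No gene of contraction signalling (35 tested, median -0.06), of adhesion and cytoskeleton linkers (38 tested, median -0.18), of non-muscle actomyosin (12 tested, median -0.09) or of the regulators of the programme (29 tested, median 0.08) was called by edgeR. Of these lists 7, 2, 0 and 5 genes had an unadjusted p under 0.05 in edgeR, as had 2269 of all 16785 genes tested. DESeq2 called 2, 0, 0 and 3 of their genes, and limma-voom none. The genes of modulation, which are known to rise when smooth muscle leaves the contractile state, had 2 of 21 higher: THBS1, a matrix protein, by 3.08 on the log2 scale (edgeR adjusted p = 0.0135), and SPP1, osteopontin, at 16.9, 36.0 and 6.46 CPM in obese and 0.0558 and 0.0686 CPM in control pigs (edgeR adjusted p = 0.00728). Their list had a median of -0.02. The order of SPP1 over the pigs was also that of the macrophage cluster's share of nuclei (5.75%, 14.8% and 1.60% in obese and 0.506% and 0.644% in control pigs), whose part in the result was not tested. Among the genes of highest level in the lists with no call, the kinase PRKG1 had a fold change of -0.13, the channel KCNMA1 -0.43, LPP 0.37, MYH9 -0.32, ACTN4 0.04, TEAD1 0.12 and PRDM6 -0.59. In endothelial-like nuclei, where 7.34% of all genes were called, 5 of 28 contraction signalling genes rose, among them the nitric oxide receptor subunit GUCY1A1 and the endothelin receptor EDNRB (log2 fold changes 2.17 and 2.53), together with 8 of 11 immediate early and heat shock genes (median 1.88). CNN3, WWTR1, NR2F2, THBS1, SPP1 and VCAM1 rose there as well, while PXN, the regulator GATA6 and LTBP2 fell, with log2 fold changes of -1.24, -1.97 and -3.26. In fibroblast-like nuclei the regulator KLF4 rose by 2.28 (edgeR adjusted p = 0.0479), with THBS1 and ATF3.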

How the data were processed

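Nuclei of 5 abdominal aortae were measured by single-nucleus RNA sequencing (10x 3′ kit v3.1), and the authors deposited UMI counts per gene and nucleus, per the labels' protocols and the file headers. Reads were mapped to Sscrofa 11 with Cell Ranger, version 5.0 per the submitters' processing notes and 7.1.0 per the file headers, and Seurat 5.0 is also named in those notes. The listed genes, related lists and class markers were chosen with earlier results of these data known.

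Of 45580 barcodes, 77 were dropped for under 300 genes or over 5% mitochondrial UMIs, and 3522 doublets were removed by Scrublet score at 0.8% per 1000 nuclei, since its automatic threshold marked 8. Clustering (scanpy 1.11.5, leidenalg 0.10.2, Python 3.11.15, 3000 variable genes, 30 components, 20 neighbours, resolution 1) left out the listed genes. A class needed at least 3 markers at 20 CPM or more and 2-fold above the other nuclei, and a position score of at least 0.4, which was set after seeing the data. A cluster led by red cell genes was left without a name.

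Counts were summed per pig and class, and CPM was computed here from those sums. Diet was tested with edgeR 4.0.16 (R 4.3.3, quasi-likelihood, TMM factors, filter on low counts, Benjamini-Hochberg over all genes), with DESeq2 1.42.0, limma 3.58.1 (voom), other filters, scalings and gates, and leaving out each pig as alternatives. Differences between classes used the pig as a block. On simulated counts of smooth muscle-like nuclei (16785 genes, 100 changed at each size) edgeR recovered 10% of 2-fold and 96% of 4-fold changes with 9 false calls. Intervals are exact, at 95%, and cover counting error only. Given by pig were genes with an adjusted p under 0.05 in any class, ACTA2, MYH11, CNN1, TAGLN, MYL9, MYLK and MYOCD, and the 6 largest positive and negative fold changes in smooth muscle-like nuclei. In other classes the 3 largest in each direction were given. Promoters are from RefSeq, Sscrofa11.1. Some items are not reported here.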

Additional observations from a re-analysis of the deposited data

Results flagged for a closer look

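The diet effect on TPM4 differed between smooth muscle-like and endothelial-like nuclei in the test of the difference itself: the log2 fold change (obese minus control) was lower in smooth muscle-like nuclei, by -1.42 with a standard error of 0.38 (edgeR adjusted p = 0.0133). That of SMTNL2 was higher in smooth muscle-like nuclei, by 4.16 with a standard error of 1.19 (edgeR adjusted p = 0.0276), where both classes held few counts in the obese pigs, so that this size depends on the prior count. Leaving out any 1 pig left at most 1 of these calls, and none without control pig 2. The rise of TPM4 in endothelial-like nuclei was not called within cluster 15 or cluster 18.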

How the results depend on the processing

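With 3 and 2 pigs the counts of calls rest on single pigs and on the nuclei admitted, and values of genes at few counts are limited by depth. Shares of all genes called were given above for the wider class and for clusters 0, 1, 15 and 18. For the other alternatives, DESeq2 and limma-voom among them, no such share is given. Their counts of calls therefore have no background to be read against. In smooth muscle-like nuclei 1 contractile gene was called. Leaving out 1 pig gave 0 to 1, with 0 in every case except without obese pig 2. DESeq2 gave 3, no filter on low counts 7, and limma-voom, no doublet removal, listed genes used in clustering, and the unnamed clusters added (with all pigs or any pig left out) each gave 0. Alone, clusters 2, 3, 4, 8 and 11 gave 0. Fits of single clusters, and of the wider class without 1 pig, were chosen after seeing the data. The labels do not say that replicate numbers pair pigs, and same-numbered pigs correlated at 0.0935 and -0.0685 in 2 pairs. With a replicate block on numbers 1 and 2, which leaves out obese pig 3, 3 were called in smooth muscle-like nuclei, 1 in fibroblast-like nuclei and 3 in all kept nuclei. ACTG2 was positive in all 26 alternatives (0.80 to 2.45) and called in 9 (edgeR, DESeq2 or limma adjusted p from 1.37e-05 to 0.413).

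In pericyte-like nuclei no filter gave 1 call against 0. The 3 endothelial-like calls became 1 to 4 without 1 pig (1 without either control pig), 0 in cluster 15 and 1 in cluster 18 alone. SMTNL2 was called there in all 13 alternatives, TPM4 in 10 of 14 and MYOZ3 in 8 of 12. In fibroblast-like nuclei the 0 calls became 0 to 1 without 1 pig (1 without obese pig 3) and 1 with no filter. In all kept nuclei they became 0 to 1 without 1 pig (1 without obese pig 2 or 3), 4 with DESeq2 and 5 with no filter. Differences of diet effects without 1 pig were 0 to 2 calls against pericyte-like nuclei (1 without obese pig 2 and 2 without obese pig 3), 0 to 1 against endothelial-like nuclei, and 0 against fibroblast-like nuclei.

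Signs turned for genes near no change. MYH11 (0.05) was -0.17 to 0.20 without 1 pig, -0.016 with no filter, -0.17 with the replicate block, -0.22 with no doublet removal, -0.15 with listed genes in clustering and -0.31 with the unnamed clusters added. MYOCD (0.06) was -0.24 to 0.39 without 1 pig, -0.018 with limma-voom, -0.010 with no filter and -0.31 with the replicate block. TAGLN (-0.17) was -0.69 to 0.093 without 1 pig. TPM4 in smooth muscle-like nuclei (0.54) was -0.35 in cluster 8 alone. The cause of these changes was not tested.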
